A study of Mus musculus with 10 samples.

Results

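The 47 genes described here encode proteins of focal adhesions and of the actin cytoskeleton. They were chosen by mouse gene symbol and found by Entrez identifier among the 24454 genes of a table of mRNA read counts. The cells were NMuMG/E9, a subclone (1 clone) of NMuMG, which is an epithelial line from normal mouse mammary gland. All 4 groups were transfected with siRNA at 20 nM, either a control (siCtr) or one that targets Irf1 (siIrf1), the gene of the transcription factor interferon regulatory factor 1. Cells were harvested on day 3, either without TGFbeta (0 d) or with recombinant human TGFbeta1 at 2 ng/ml for the last 2 d. There were 2 siCtr libraries at 0 d (replicates 1 and 3) and 2 with TGFbeta (replicates 2 and 3), and 3 siIrf1 libraries in each condition. TGFbeta drives NMuMG cells through an epithelial-mesenchymal transition (EMT). The design asks what TGFbeta and knockdown of Irf1 each do to mRNA levels and whether the effect of one depends on the other. Whether replicates were grown as separate cultures is not stated in the labels. The p-values therefore measure the spread of these libraries, which may be technical. Of the 47 genes, 46 passed the filter on low counts. Tgfb1i1, a LIM-domain adaptor related to paxillin, had 0 to 3 counts per library and was not tested.

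Libraries held 27547649 to 67301646 counts. Irf1 was at 129 to 148 CPM (counts scaled to a common effective library size) in siCtr 0 d, 56.4 to 64.1 in siIrf1 0 d, 106 and 112 in siCtr TGFbeta and 36.5 to 46.2 in siIrf1 TGFbeta. Every siIrf1 library was below every siCtr library. An index of each library's GC balance, in log2 units, was the mean of genes of lowest GC content minus that of genes of highest GC content. Each gene was first centred on its mean over the libraries. An index below 0 thus means relatively low levels of low-GC genes. It stood apart in siCtr 0 d replicate 1 (-1.44, against -0.70 in replicate 3) and in siIrf1 TGFbeta replicate 2 (-0.39, against 0.72 and 0.82). Of 7 epithelial markers, Cdh1, Krt8, Krt18 and Krt19 were present (summed level of the list 6620 to 13631 CPM), while Cldn7 had no counts in any library and Epcam and Cldn3 had none in 3 of the 4 groups. In siCtr cells mean Cdh1 was 640 CPM without and 351 with TGFbeta, and Krt19 2438 and 307. Krt8 was at 2908 and 4981 there, and Krt18 at 3900 and 7549. In siIrf1 cells Cdh1 was at 603 and 667 CPM, Krt19 at 2132 and 950, Krt8 at 2190 and 3446 and Krt18 at 3738 and 4100. The summed levels of 5 smooth muscle markers were 169 to 277 CPM without and 340 to 549 CPM with TGFbeta. Most of each sum was Smtn, at means of 228 and 493 CPM in siCtr and 208 and 425 in siIrf1 cells. Mean Acta2 was 0.360 and 10.2 CPM in siCtr and 0.415 and 13.6 in siIrf1 cells, and mean Cnn1 1.76 and 4.97, and 2.03 and 1.54. Myh11 and Des reached at most 0.521 and 0.347 CPM in any library. The summed levels of 5 fibroblast markers were 0.0606 to 0.791 CPM without and 15.2 to 22.7 CPM with TGFbeta, with Lum and Col1a2 at 0 in every library. Those of 5 endothelial markers were 0 to 0.158 and 1.52 to 5.92 CPM, with Emcn at 0. The 6 immune markers summed to 27.3 to 58.0 CPM, with Adgre1 and Cd3e at 0. The part of these cell types in the results below was not tested.

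Focal adhesions are the sites where integrins in the cell membrane are tied to actin filaments. Talin, vinculin, integrin-linked kinase and LIM-domain adaptors form the link, focal adhesion kinase and Src signal from it, and alpha-actinin, filamin and palladin bundle and crosslink the filaments. Small GTPases such as RhoA, through ROCK kinases and the formin Diaph1, drive myosin II contraction and filament growth. In EMT, epithelial cells lose the cortical actin belt of their junctions and build stress fibres anchored at focal adhesions. Many actin cytoskeleton genes are targets of serum response factor (SRF) and its MRTF cofactors, which sense the pool of free actin monomers.

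Per transcript length, the most abundant of these mRNAs in siCtr 0 d cells were those of cytoplasmic actin and of the proteins that bind actin monomers or sever filaments. Actb (beta-actin) was at 1244 ± 211 RPKM (CPM per kilobase of the deposited gene length; mean ± SD), Pfn1 (profilin) at 1232 ± 274, Cfl1 (cofilin) at 1218 ± 327 and Actg1 (gamma-actin) at 731 ± 181 RPKM. The mean ± SD ranges of neighbours in that order overlapped. Ezr (ezrin, a linker of cortical actin to the membrane of epithelial cells) followed at 464 ± 42.4 RPKM, apart from Actg1 above it and from Myl12a (myosin regulatory light chain, 380.4 ± 31.8 RPKM) below it. The other leading members of their roles were Flna (filamin A) at 353 ± 56.6, Rhoc at 208 ± 8.09, Ilk (integrin-linked kinase) at 129 ± 20.9, Src at 53.2 ± 3.39 and Diaph1 at 28.9 ± 4.94 RPKM. Of the 46 pairs of neighbours in the order of all 47 genes, 33 had mean ± SD ranges that overlapped and 13 did not. At the bottom of the order were Rock1 (0.142 ± 0.0142 RPKM), the muscle filamin Flnc (0.0157 ± 0.00813 RPKM) and Tgfb1i1. In siCtr TGFbeta cells the small actin monomer binder Tmsb4x (thymosin beta 4) ranked 2 by length-scaled level, where it had ranked 12 without TGFbeta, and Ezr ranked 19, where it had ranked 5.

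In siCtr cells TGFbeta raised most of these genes. Of the 46 tested, 26 rose, 2 fell (Mylk and Ezr) and 18 were not called (edgeR quasi-likelihood test, Benjamini-Hochberg adjusted over 13135 genes, threshold 0.05). Called members thus made up 60.9%, where 32.5% of all genes tested were called, 16.1% higher and 16.3% lower. The median log2 fold change of the members was 0.87, and that of all genes was 0.02. In siIrf1 cells 18 members rose and none fell (39.1%, against 21.3% of all genes, 11.6% higher and 9.71% lower), with a median of 0.49 against 0.02. With the replicate number as a block, which paired the siIrf1 libraries of this comparison, 21 rose and Tns1 fell (47.8%, against 23.2% of all genes). The other counts given for siIrf1 cells are without the block. At an unadjusted p under 0.05 the members numbered 33 of 46 in siCtr cells and 25 of 46 in siIrf1 cells. All genes numbered 5813 and 4203 of 13135. Of the members that rose, 17 did so in both, which is 65.4% of the 26 and 94.4% of the 18, and in 14 of the 17 the log2 change was the smaller in siIrf1 cells. Over all genes 2120 rose in siCtr and 1523 in siIrf1 cells, and their overlap was not counted. Whether these shares are particular to the members was therefore not tested. The 26 include Flnc, which passed the low-count filter only through the siCtr TGFbeta libraries, where it was high. Fewer cells of a kind and less RNA per cell cannot be told apart in such bulk libraries. The calls of 17 of the 28 members in siCtr cells and of 13 of the 18 in siIrf1 cells were made under each alternative processing and with any 1 library left out. With the GC and length trend removed, 27 rose and 4 fell in siCtr cells (67.4%, against 42.9% of all genes). Those that fell were Diaph1 and Tns3 beside Mylk and Ezr. In siIrf1 cells 21 then rose and 2 fell, Tns1 and Ezr (50%, against 32.2%). Without the 2 libraries that stood apart, 29 members rose and 2 fell in siCtr cells (67.4%, against 31.4% of all genes), and 22 rose and 2 fell in siIrf1 cells (52.2%, against 36.3%).

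**Figure D1:**
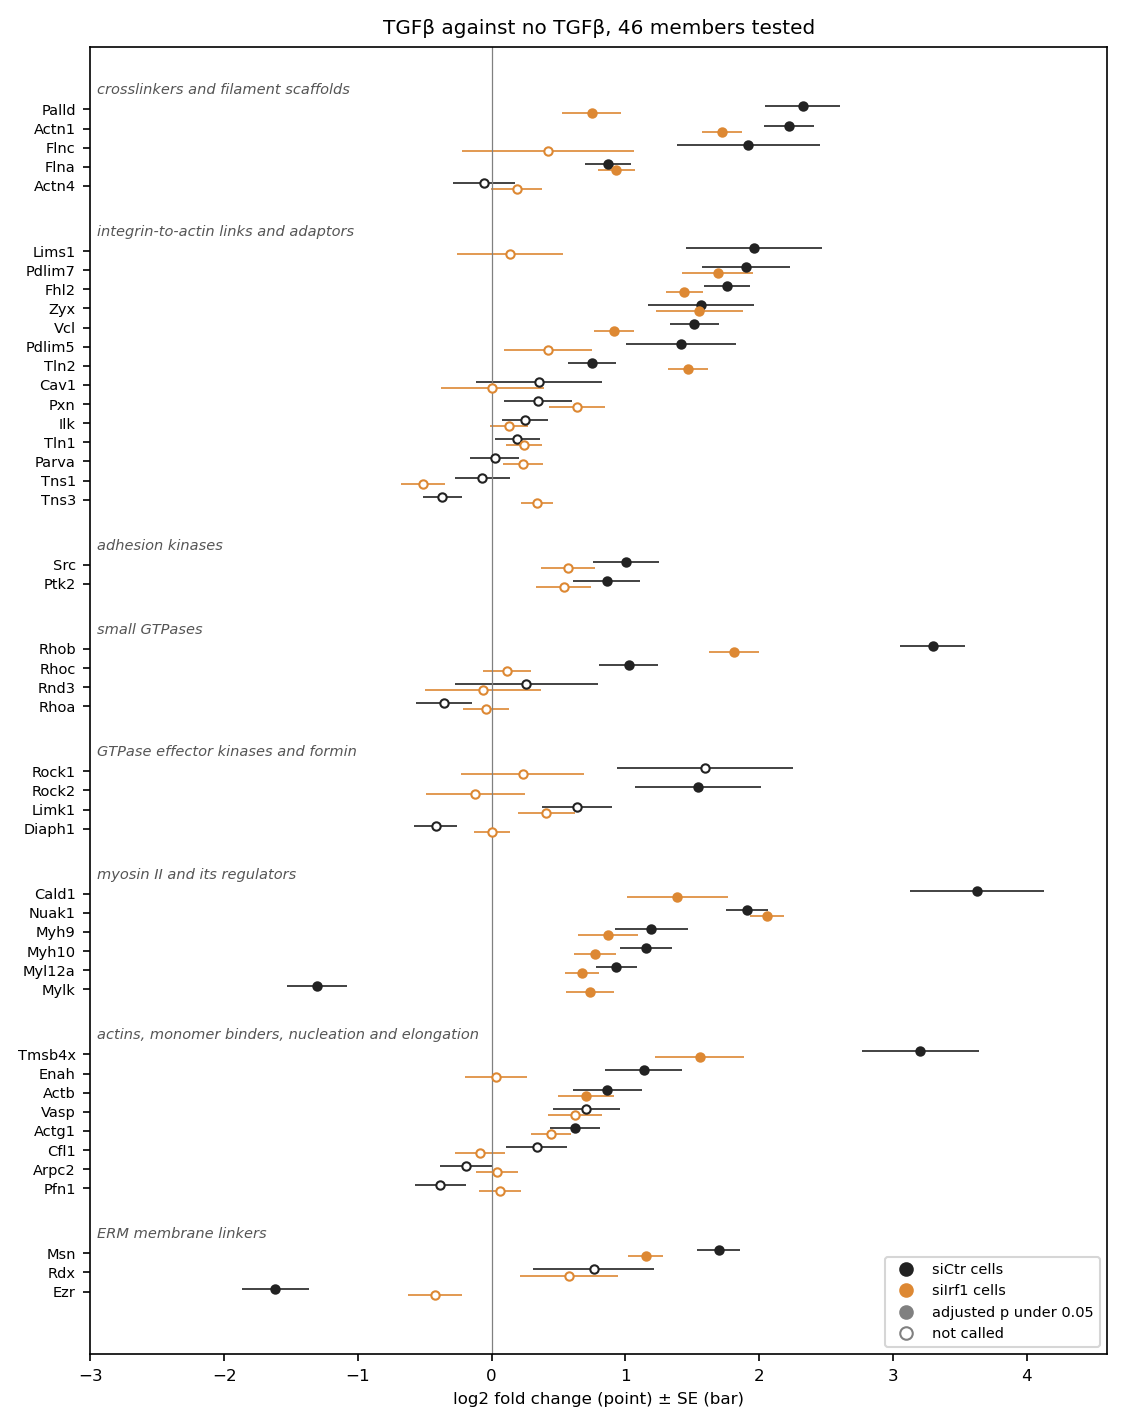
Log2 fold change with TGFbeta (x axis, no unit) of the 46 members tested, in siCtr cells (black) and siIrf1 cells (orange), grouped by role; points are estimates, bars are ± SE and filled points passed the adjusted threshold of 0.05. Values are from the fit without the replicate block. Most filled points lie right of 0, Mylk (-1.30) and Ezr (-1.62) lie left of it in siCtr cells, and Mylk lies on opposite sides of 0 with the 2 siRNAs.

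Of the 5 crosslinkers and filament scaffolds, Actn1, Palld and Flna rose with both siRNAs and Actn4 with neither, and Flnc is given apart because of the filter. Actn1 (gene 109711, chromosome 12, 80167542 to 80260420 of GRCm38), the alpha-actinin of stress fibres and focal adhesions, was at 453 and 409 CPM in siCtr 0 d, 2004 and 2020.3 in siCtr TGFbeta, 363, 456 and 325 in siIrf1 0 d, then 1313, 1176 and 1282 in siIrf1 TGFbeta. The TGFbeta libraries lay above all others, and the siIrf1 ones below the siCtr ones. Its log2 fold change with TGFbeta was 2.22 ± 0.18 (adjusted p = 1.45e-05) in siCtr and 1.72 ± 0.15 (adjusted p = 2.56e-05) in siIrf1 cells. Palld (palladin, gene 72333, chromosome 8, 61511431 to 61902707), a scaffold that binds alpha-actinin and VASP, was at 64.3 and 64.1 CPM in siCtr 0 d, 322 and 322 in siCtr TGFbeta, 61.9, 72.6 and 56.1 in siIrf1 0 d, then 126, 68.7 and 126 in siIrf1 TGFbeta. It rose 2.33 ± 0.28 (adjusted p = 1.78e-04) in siCtr cells and 0.75 ± 0.22 (adjusted p = 0.0344) in siIrf1 cells. The siCtr TGFbeta libraries lay far above the other 8, and 1 siIrf1 TGFbeta library lay within the range of the siIrf1 0 d libraries. The call of Palld in siIrf1 cells was lost without replicate 1 or 3 of siIrf1 0 d, replicate 3 of siCtr TGFbeta or replicate 1 or 3 of siIrf1 TGFbeta, with the replicate block, after removal of the GC and length trend, with the block plus removal of the GC and length trend and in a fit of only the groups compared (0.49 to 0.75).

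Flna, the most abundant filamin, was at 3288 and 2618 CPM in siCtr 0 d, 5239 and 5548 in siCtr TGFbeta, 1825, 1746 and 1551 in siIrf1 0 d, then 3449.5, 3403 and 2909.9 in siIrf1 TGFbeta. It rose 0.87 ± 0.17 in siCtr and 0.93 ± 0.14 in siIrf1 cells, from a lower level in the siIrf1 cells. Flnc, the filamin of striated muscle, had 1 to 30 counts per library and passed the low-count filter only through the siCtr TGFbeta libraries. It was at 0.196 and 0.0909 CPM in siCtr 0 d, 0.558 and 0.500 in siCtr TGFbeta, 0.0314, 0.0679 and 0.0528 in siIrf1 0 d, then 0.0295, 0.101 and 0.0602 in siIrf1 TGFbeta. Its value in siCtr cells was 1.92 ± 0.53 (adjusted p = 0.02), which the filter favoured. That call was lost without replicate 3 of siCtr 0 d or replicate 2 or 3 of siCtr TGFbeta and with DESeq2 (1.54 to 2.06), and the value was 2.55 without the 2 libraries that stood apart and 2.55 without siCtr 0 d replicate 1. Actn4, the other non-muscle alpha-actinin, was at 1038 ± 133 CPM in siCtr 0 d and 997 ± 47.9 in siCtr TGFbeta, with overlapping libraries. Of the 2 alpha-actinin genes, Actn1 was called and Actn4 was not.

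**Figure D2:**
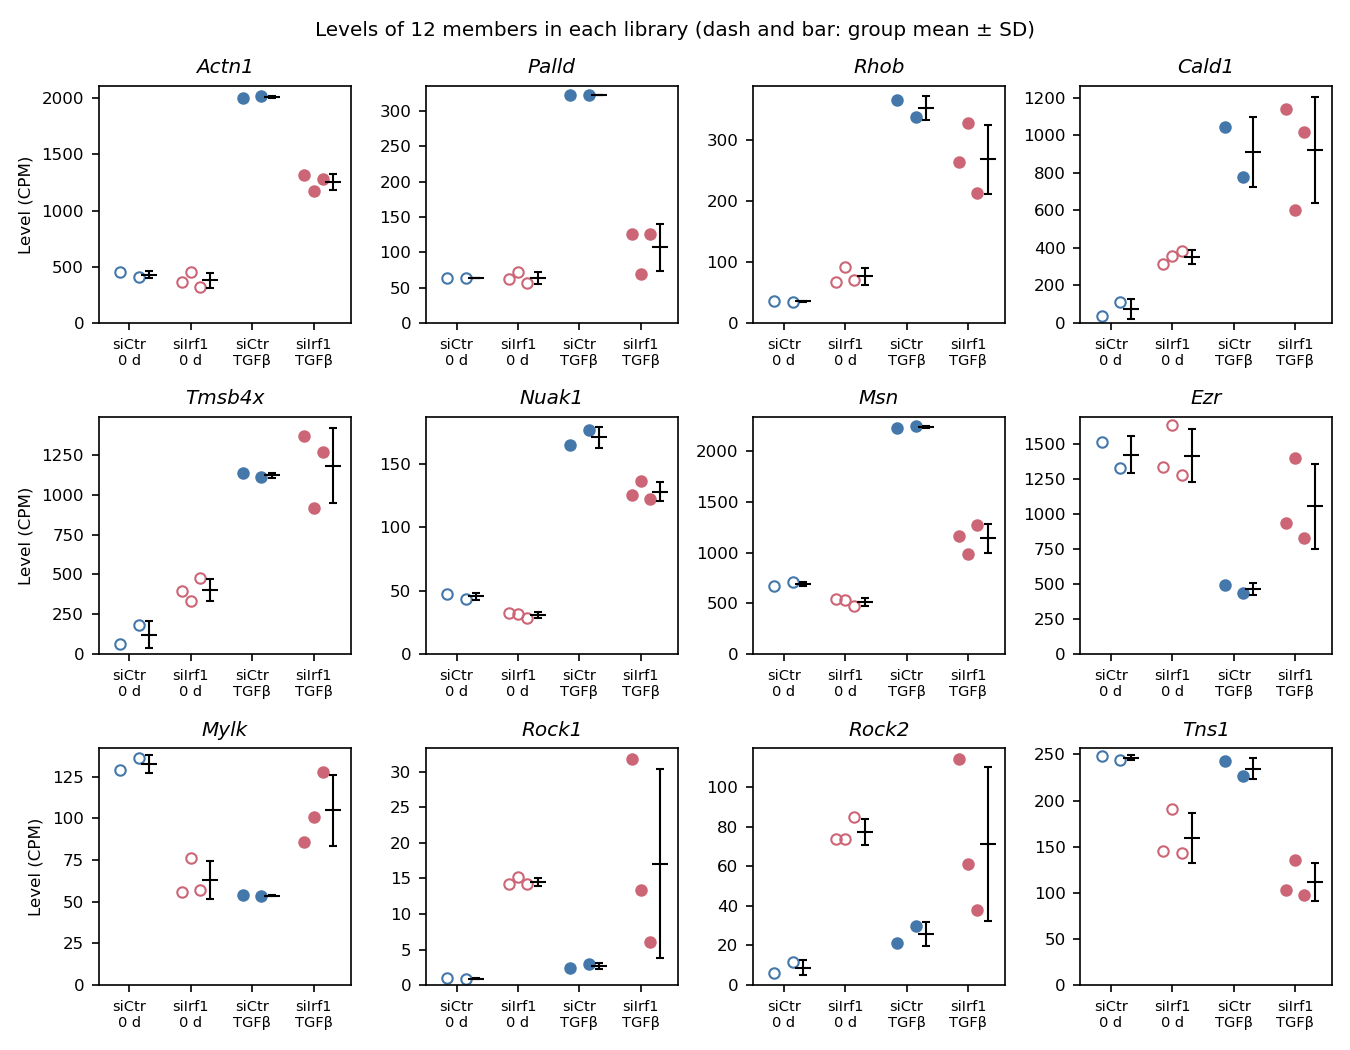
Levels of 12 members (y axes, CPM, each from 0) in each of the 10 libraries by group (x axes); circles are libraries, dashes and bars are group mean ± SD. The TGFbeta libraries of Actn1, Rhob, Cald1, Tmsb4x, Nuak1 and Msn lie above the 0 d libraries of the same siRNA, while Ezr and Mylk are lowest in siCtr TGFbeta.

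Of the 14 tested genes that link integrins to actin, 7 rose in siCtr cells, 5 of them also in siIrf1 cells, and none fell in either. Vcl (vinculin, which ties talin to actin under tension) rose from 179 ± 18.8 to 511 ± 24.5 CPM in siCtr cells (1.51 ± 0.18 (adjusted p = 1.68e-04)) and from 217 ± 16.7 to 408 ± 63.8 in siIrf1 cells (0.92 ± 0.15 (adjusted p = 0.00139)). The LIM-domain adaptor Fhl2 rose 1.76 ± 0.17 and 1.44 ± 0.14. Zyx (zyxin, a LIM protein that comes to strained stress fibres) was at 201 and 215 CPM in siCtr 0 d, 695 and 535 in siCtr TGFbeta, 80.2, 172 and 63.4 in siIrf1 0 d, then 354, 277 and 295 in siIrf1 TGFbeta. All TGFbeta libraries were above all 0 d libraries, with changes of 1.57 ± 0.40 (adjusted p = 0.0136) and 1.55 ± 0.32 (adjusted p = 0.00664). Pdlim7, a PDZ and LIM protein of actin filaments, was at 66.7 and 71.3 CPM in siCtr 0 d, 285 and 231 in siCtr TGFbeta, 49.5, 78.6 and 47.4 in siIrf1 0 d, then 197, 243 and 127 in siIrf1 TGFbeta. It rose 1.90 ± 0.33 (adjusted p = 0.00167) and 1.69 ± 0.27 (adjusted p = 0.00132), again with no overlap. Lims1 (PINCH-1, the LIM partner of integrin-linked kinase) was at 4.75 and 13.6 CPM in siCtr 0 d, 43.04 and 28.9 in siCtr TGFbeta, 34.1, 31.5 and 38.7 in siIrf1 0 d, then 50.7, 20.7 and 43.5 in siIrf1 TGFbeta. The 2 siCtr 0 d libraries stood below the other 8 and differed from each other, and Lims1 rose in siCtr cells (1.96 ± 0.51 (adjusted p = 0.0151)). In siIrf1 cells its libraries with and without TGFbeta overlapped. Pdlim5 rose in siCtr cells (1.41 (adjusted p = 0.025)), and Tln2, the less abundant of the 2 talins, rose 0.75 ± 0.18 in siCtr and 1.47 ± 0.15 in siIrf1 cells.

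The other 7 members of the integrin link tested were not called with TGFbeta in siCtr cells. Ilk was at 270.0 and 214 CPM in siCtr 0 d, 283 and 291 in siCtr TGFbeta, 237, 254 and 225 in siIrf1 0 d, then 263, 290.1 and 230.0 in siIrf1 TGFbeta. Its TGFbeta libraries lay slightly above the 0 d ones in siCtr cells and overlapped them in siIrf1 cells. Tln1, Parva (alpha-parvin, the third partner of integrin-linked kinase and PINCH), Cav1 (caveolin 1), Pxn (paxillin), Tns1 and Tns3 (tensins, which bind integrin tails and actin) were not called either. Tns1 was at 248 and 244 CPM in siCtr 0 d, 242 and 227 in siCtr TGFbeta, 145, 191 and 143 in siIrf1 0 d, then 103, 135 and 97.1 in siIrf1 TGFbeta. Its 2 siCtr groups nearly met, and its siIrf1 TGFbeta libraries were the lowest. Tns3 was at -0.37 (adjusted p = 0.0789) in siCtr and 0.34 (adjusted p = 0.0702) in siIrf1 cells. With the replicate number as a block 5 more members were called in siIrf1 cells, Pxn at 0.63 (adjusted p = 0.013), Tns1 at -0.51 (adjusted p = 0.0173), Src at 0.56 (adjusted p = 0.0195), Vasp at 0.62 (adjusted p = 0.00717) and Actg1 at 0.45 (adjusted p = 0.0395). Palld was lost at 0.72 (adjusted p = 0.071). With the GC and length trend removed, Ilk (0.65 (adjusted p = 8.65e-04)) and Tns3 (-0.55 (adjusted p = 0.0128)) were called in siCtr cells. Pxn (0.36 (adjusted p = 0.0212)) and Tns1 (-0.92 (adjusted p = 8.97e-04)) were then called in siIrf1 cells. In siCtr cells the call of Lims1 was lost without replicate 1 of siCtr 0 d or replicate 2 of siCtr TGFbeta and in a fit of only the groups compared (1.44 to 1.96), and that of Pdlim5 without replicate 1 of siCtr 0 d or replicate 2 or 3 of siCtr TGFbeta and in a fit of only the groups compared (0.98 to 1.51). The call of Zyx was lost without replicate 1 of siCtr 0 d or replicate 2 of siCtr TGFbeta (1.45 to 1.56) and that of Tln2 after removal of the GC and length trend (0.45). Lims1 stood at 1.25 after removal of the GC and length trend and 3.04 without siCtr 0 d replicate 3, and Pdlim5 at 0.79 after removal of the GC and length trend and 2.24 without siCtr 0 d replicate 3.

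Both adhesion kinases rose in siCtr cells and neither was called in siIrf1 cells without the replicate block. With the block Src was called there (0.56 (adjusted p = 0.0195)), and with the GC and length trend removed Ptk2 was (0.44 (adjusted p = 0.00782)). Src, the tyrosine kinase that phosphorylates paxillin and focal adhesion kinase, was at 216 and 197 CPM in siCtr 0 d, 444 and 387 in siCtr TGFbeta, 181, 231 and 159.9 in siIrf1 0 d, then 292, 349 and 210.2 in siIrf1 TGFbeta. Its log2 value was 1.01 ± 0.25 (adjusted p = 0.0115) in siCtr cells and 0.57 (adjusted p = 0.0715) in siIrf1 cells. The 2 siCtr TGFbeta libraries were the highest of the 10. Ptk2 (focal adhesion kinase) went from 131 ± 44.2 to 238 ± 3.55 CPM in siCtr cells (0.86 (adjusted p = 0.0256)) and from 153 ± 7.53 to 222 ± 46.97 in siIrf1 cells (0.54 (adjusted p = 0.0949)). The interaction was not called for either gene, so a difference between the siRNAs was not shown. The call of Src was lost without replicate 2 of siCtr TGFbeta (0.99), and that of Ptk2 without replicate 1 of siCtr 0 d or replicate 2 or 3 of siCtr TGFbeta and in a fit of only the groups compared (0.59 to 0.94).

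Of the 4 small GTPases, 2 rose in siCtr cells and 1 in siIrf1 cells. Rhob (gene 11852, chromosome 12, 8497661 to 8500009), a small GTPase of endosomes and the membrane whose gene is induced early by many stimuli, was at 36.5 and 35.01 CPM in siCtr 0 d, 365 and 338 in siCtr TGFbeta, 66.6, 92.1 and 70.1 in siIrf1 0 d, then 264, 327 and 213 in siIrf1 TGFbeta. Every TGFbeta library stood above every 0 d library, and the siIrf1 0 d libraries stood above the siCtr 0 d ones. The changes were 3.30 ± 0.24 (adjusted p = 7.22e-06) and 1.81 ± 0.19 (adjusted p = 7.16e-05). Rhoc, the one most linked with cell motility, was at 230.0 and 218 CPM in siCtr 0 d, 461 and 449 in siCtr TGFbeta, 269.7, 299.9 and 269 in siIrf1 0 d, then 313, 374 and 219 in siIrf1 TGFbeta. It rose in siCtr cells (1.02 ± 0.22 (adjusted p = 0.00572)). In siIrf1 cells the Rhoc libraries with and without TGFbeta overlapped. Rhoa, the best studied driver of stress fibres, and Rnd3, a GTPase that restrains ROCK1, were not called with either siRNA. Rhoa stood at 376 ± 93.2 and 293 ± 28.1 CPM in the siCtr groups, and Rnd3 at 36.8 ± 28.9 and 44.03 ± 15.3 CPM. These family members are similar in sequence, and how reads shared by close copies were counted is not given in the sources used here.

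Of the 4 effectors of these GTPases, 1 rose in siCtr cells and none in siIrf1 cells. The ROCK kinases phosphorylate myosin light chain and its phosphatase. Rock2 was at 6.09 and 11.5 CPM in siCtr 0 d, 21.4 and 29.9 in siCtr TGFbeta, 73.7, 73.6 and 84.8 in siIrf1 0 d, then 114, 61.3 and 37.9 in siIrf1 TGFbeta. Rock1 was at 0.942 and 0.819 CPM in siCtr 0 d, 2.34 and 3.00 in siCtr TGFbeta, 14.2, 15.2 and 14.2 in siIrf1 0 d, then 31.8, 13.4 and 6.02 in siIrf1 TGFbeta. Both siCtr groups lay far below the siIrf1 0 d level of either gene. Rock2 rose with TGFbeta in siCtr cells (1.54 ± 0.47 (adjusted p = 0.0301)), and Rock1 had a larger error and was not called (1.60 (adjusted p = 0.0893)). The siIrf1 TGFbeta libraries of both genes spread widely, on both sides of the siIrf1 0 d range for Rock1 and Rock2 alike. Diaph1, the formin that RhoA activates, was at 186 and 146 CPM in siCtr 0 d, 121 and 127 in siCtr TGFbeta, 109, 112 and 104 in siIrf1 0 d, then 101, 108 and 117 in siIrf1 TGFbeta. It was not called, and neither was the cofilin kinase Limk1 (0.64 (adjusted p = 0.0864) in siCtr cells). With the GC and length trend removed both were called in siCtr cells, Diaph1 at -0.51 (adjusted p = 0.00881) and Limk1 at 0.58 (adjusted p = 0.00643). The call of Rock2 was lost without replicate 1 of siCtr 0 d or replicate 3 of siCtr TGFbeta, after removal of the GC and length trend and without the 2 libraries that stood apart (0.68 to 1.35), and its value was 2.19 without siCtr 0 d replicate 3.

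All 6 members of the myosin II group changed in siCtr cells, 5 up and 1 down, and all 6 rose in siIrf1 cells. Cald1 (caldesmon, which binds tropomyosin filaments and restrains myosin) was at 35.5 and 112 CPM in siCtr 0 d, 1042 and 779 in siCtr TGFbeta, 313, 358 and 384 in siIrf1 0 d, then 1142, 603 and 1019 in siIrf1 TGFbeta. It had the largest rise of the members in siCtr cells, 3.63 ± 0.50 (adjusted p = 4.38e-04), from 2 libraries that differed from each other, and rose 1.39 ± 0.38 (adjusted p = 0.0246) in siIrf1 cells from a higher level to the same range. Nuak1, a kinase of the AMPK family that acts on the myosin phosphatase targeting subunit, was at 47.3 and 43.7 CPM in siCtr 0 d, 165 and 177 in siCtr TGFbeta, 32.2, 31.6 and 28.3 in siIrf1 0 d, then 126, 136 and 122 in siIrf1 TGFbeta. It rose 1.91 ± 0.16 in siCtr and 2.06 ± 0.13 in siIrf1 cells. Myl12a was at 717 and 637 CPM in siCtr 0 d, 1187 and 1398 in siCtr TGFbeta, 707, 668 and 656 in siIrf1 0 d, then 1172, 996 and 1071 in siIrf1 TGFbeta. It rose 0.93 ± 0.16 and 0.67 ± 0.13. The heavy chains Myh9 and Myh10 rose 1.19 ± 0.27 and 1.15 ± 0.19 in siCtr and 0.87 ± 0.22 and 0.77 ± 0.16 in siIrf1 cells.

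Mylk (gene 107589, chromosome 16, 34745199 to 35002436) was the exception in this group. It encodes myosin light chain kinase, which activates myosin II in a calcium-dependent way. Its level was 129 and 136 CPM in siCtr 0 d, 53.9 and 53.4 in siCtr TGFbeta, 55.6, 76.1 and 56.98 in siIrf1 0 d, then 85.8, 101 and 128 in siIrf1 TGFbeta. It fell with TGFbeta in siCtr cells, -1.30 ± 0.22 (adjusted p = 0.00147), and rose in siIrf1 cells, 0.74 ± 0.18 (adjusted p = 0.0146), with no overlap of the libraries in either comparison. In siIrf1 cells the call of Mylk was lost without replicate 1 or 3 of siIrf1 0 d and with the block plus removal of the GC and length trend (0.43 to 0.67), and that of Myh9 without replicate 1 or 3 of siIrf1 0 d (0.77 to 0.82). That of Cald1 was lost without replicate 1, 2 or 3 of siIrf1 0 d or replicate 1 or 3 of siIrf1 TGFbeta and with no filter on low counts (1.21 to 1.46). The value of Cald1 in siCtr cells was 4.80 without siCtr 0 d replicate 3. Exons of Mylk overlap those of an antisense gene over 333 of 7809 bases, and 462 of the 1779 bases of Myl12a are shared with Myl12b, so that these 2 levels may hold reads of the other gene.

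Of the 8 genes for actins and proteins that bind or extend filament ends, 4 rose in siCtr cells and 2 in siIrf1 cells. Tmsb4x was at 62.4 and 181 CPM in siCtr 0 d, 1135 and 1113 in siCtr TGFbeta, 396, 335 and 477 in siIrf1 0 d, then 1367, 917 and 1267 in siIrf1 TGFbeta. All TGFbeta libraries lay above all 0 d libraries and the 2 siCtr 0 d libraries lay lowest, with changes of 3.21 ± 0.44 (adjusted p = 4.01e-04) and 1.55 ± 0.34 (adjusted p = 0.00785). Actb was at 2676 and 2102 CPM in siCtr 0 d, 4749 and 3952 in siCtr TGFbeta, 1835, 2505 and 1544 in siIrf1 0 d, then 3172, 3803 and 2638 in siIrf1 TGFbeta. It rose by less, 0.86 ± 0.26 (adjusted p = 0.0268) and 0.71 ± 0.21 (adjusted p = 0.0358). Actg1 rose in siCtr cells (0.62 (adjusted p = 0.0273)), as did Enah (Mena, which lengthens filaments at their barbed ends, 1.14 (adjusted p = 0.0132)). Its relative Vasp missed the threshold with both siRNAs (0.71 (adjusted p = 0.0518) and 0.62 (adjusted p = 0.0539)). Pfn1, Cfl1 and Arpc2 (a subunit of the Arp2/3 complex, which nucleates branched actin) were not called. With the GC and length trend removed Cfl1 was called in siCtr cells, at 0.81 (adjusted p = 0.00115), and Actg1 in siIrf1 cells, at 0.51 (adjusted p = 0.00367). Processed copies of the actin, cofilin, profilin and thymosin genes exist in the mouse genome, and reads that fit several copies make these levels uncertain.

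The call of Actb in siCtr cells was lost without replicate 3 of siCtr 0 d or replicate 2 of siCtr TGFbeta (0.82), and that of Actg1 without replicate 3 of siCtr 0 d or replicate 2 or 3 of siCtr TGFbeta and in a fit of only the groups compared (0.51 to 0.72). The call of Enah was lost without replicate 1 of siCtr 0 d or replicate 2 of siCtr TGFbeta and after removal of the GC and length trend (0.27 to 1.17). The call of Actb in siIrf1 cells was lost without replicate 1 or 3 of siIrf1 0 d or replicate 1 or 2 of siIrf1 TGFbeta and in a fit of only the groups compared (0.56 to 0.72). The value of Tmsb4x in siCtr cells was 4.29 without siCtr 0 d replicate 3. Vasp passed the threshold under 12 of 19 alternatives in siCtr cells (0.50 to 0.92 over the 19) and under 8 of 19 in siIrf1 cells (0.39 to 0.81).

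The 3 ERM proteins, which tie actin to the plasma membrane, did not move together in siCtr cells, where Ezr fell, Msn rose and Rdx was not called. Ezr, the ERM protein of epithelial apical membranes, was at 1515 and 1331 CPM in siCtr 0 d, 493 and 434 in siCtr TGFbeta, 1332, 1632 and 1281 in siIrf1 0 d, then 936, 1400.4 and 827 in siIrf1 TGFbeta. It fell in siCtr cells, -1.62 ± 0.25 (adjusted p = 7.95e-04), with both TGFbeta libraries below all others. In siIrf1 cells 1 of the TGFbeta libraries lay within the 0 d range (-0.42 (adjusted p = 0.176)). With the GC and length trend removed Ezr was called there, at -0.49 (adjusted p = 0.0241). Msn (moesin, the ERM protein of mesenchymal and blood cells) rose from 691 ± 22.1 to 2239.9 ± 9.21 CPM in siCtr cells (1.70 ± 0.16 (adjusted p = 3.56e-05)) and from 514 ± 37.4 to 1141 ± 141 in siIrf1 cells (1.15 ± 0.13 (adjusted p = 1.43e-04)). Rdx (radixin) was at 22.2 and 59.7 CPM in siCtr 0 d, 80.00 and 59.1 in siCtr TGFbeta, 108, 98.97 and 141 in siIrf1 0 d, then 197, 105 and 218 in siIrf1 TGFbeta. Its libraries overlapped between the groups with and without TGFbeta. Per length, Ezr stood at 464 ± 42.4 RPKM and Msn at 179.9 ± 5.75 in siCtr 0 d. In siCtr TGFbeta the order was the other way round, at 151 ± 13.6 and 583 ± 2.40 RPKM.

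Members differed in both directions between siIrf1 and siCtr cells. Without TGFbeta, 8 of the 46 members were higher in siIrf1 than in siCtr cells and 11 were lower (41.3%, against 31.8% of all genes, 16.3% higher and 15.5% lower), with a median log2 fold change of -0.16 against -0.03. With TGFbeta, 4 were higher and 8, Flnc among them, were lower (26.1%, against 18.0%, 9.72% higher and 8.28% lower), with a median of -0.26 against 0.05. At an unadjusted p under 0.05 the numbers were 22 and 22 of the 46 members, and 5868 and 4075 of all 13135 genes tested. The count with TGFbeta depended on the libraries. It was 20 without siIrf1 TGFbeta replicate 2 (43.5%, against 22.7% of all genes). Fewer members, and fewer of all genes, were called without either siCtr TGFbeta library, which leaves 1 in that group. The median was then -0.35 without replicate 2 and -0.26 without replicate 3, against -0.01 and 0.01 for all genes. More of both were called without the 2 libraries that stood apart, which leaves 1 siCtr 0 d library (median -0.27, against -0.06). The count without TGFbeta was 11 without siIrf1 0 d replicate 3 (23.9%, against 17.1% of all genes). Fewer of both were called without siCtr 0 d replicate 1, which leaves 1 library there. The median was then -0.08, as it was without the 2 libraries that stood apart. The comparison without TGFbeta shares its siCtr 0 d libraries with the TGFbeta comparison in siCtr cells, and the comparison with TGFbeta shares its siCtr TGFbeta libraries with it.

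**Figure D3:**
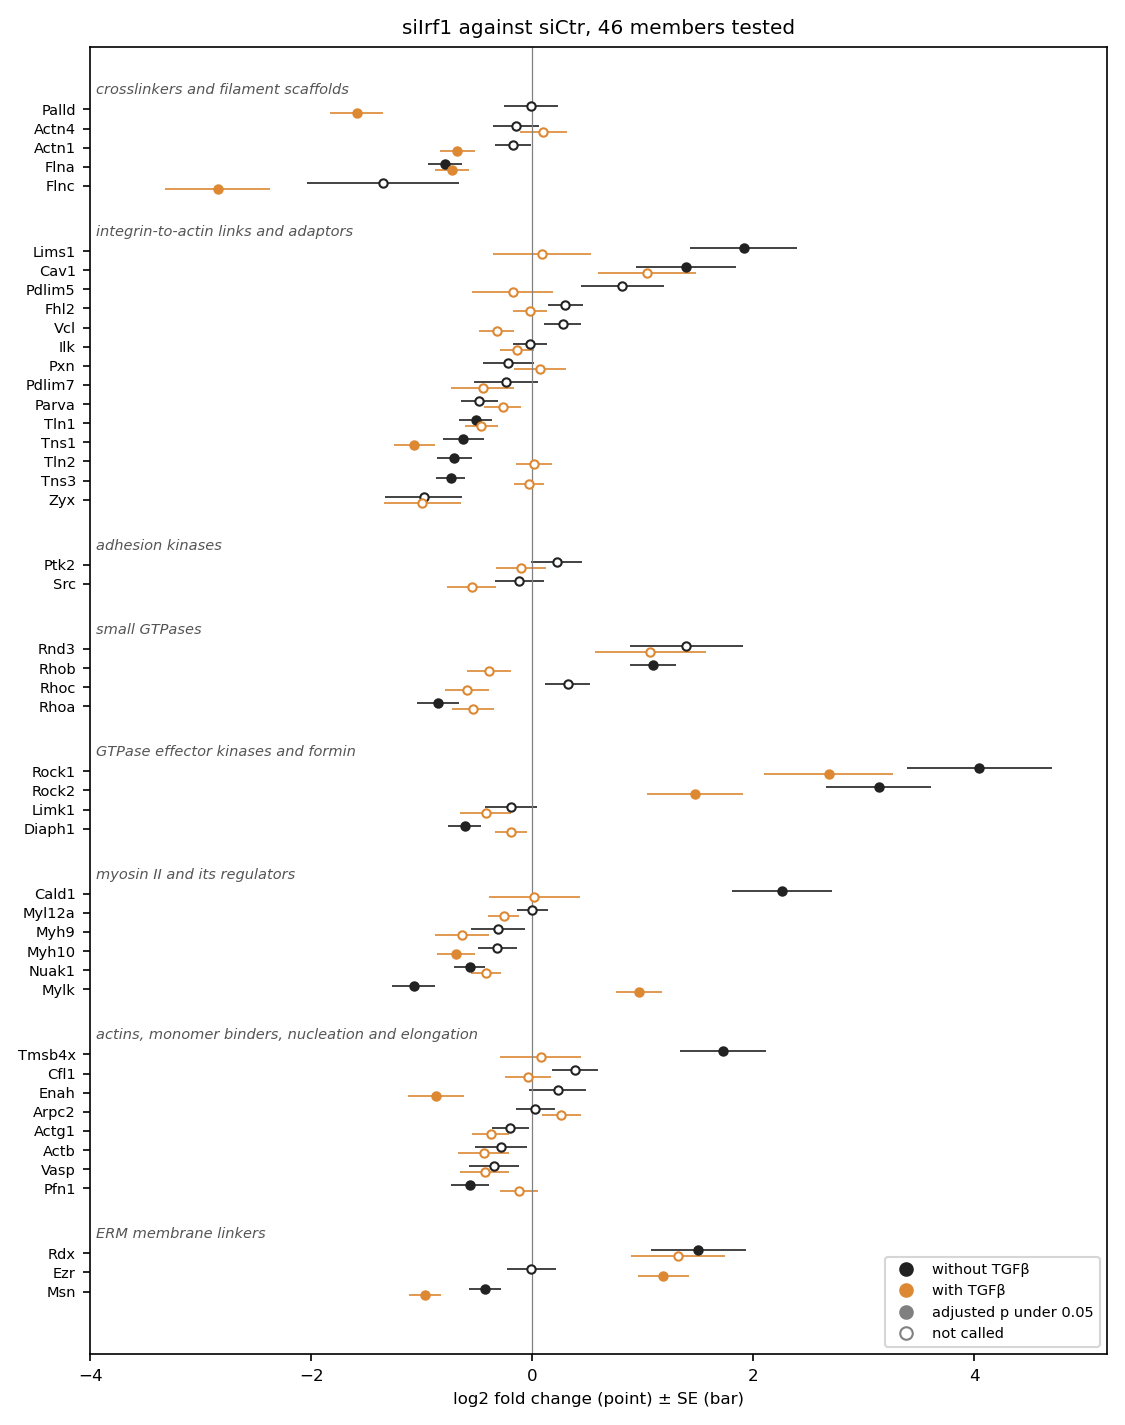
Log2 fold change of siIrf1 against siCtr cells (x axis, no unit) of the 46 members tested, without TGFbeta (black) and with TGFbeta (orange), grouped by role; points are estimates, bars are ± SE and filled points passed the adjusted threshold of 0.05. Rock1 and Rock2 lie furthest right with either treatment, Flnc and Palld furthest left with TGFbeta, and Mylk on opposite sides of 0.

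The ROCK kinases had the largest differences between the siRNAs without TGFbeta, and were the highest of the 4 members called higher with it. Rock1 was higher in siIrf1 cells by 4.04 ± 0.66 (adjusted p = 0.00239) without and 2.68 ± 0.58 (adjusted p = 0.0119) with TGFbeta, and Rock2 by 3.14 ± 0.47 (adjusted p = 0.00176) and 1.47 ± 0.43 (adjusted p = 0.0416), with no overlap of the libraries in any of the 4. The levels behind these differences were low in siCtr 0 d, 24 and 27 counts of Rock1 and 155 and 378 of Rock2. Diaph1, the other effector called, was lower without TGFbeta (-0.61 ± 0.15 (adjusted p = 0.0119)). Both ROCK genes have a low GC content, 40.2% and 41.4% of the longest transcript, and the value without TGFbeta was 2.57 after removal of the GC and length trend for Rock1 and 1.82 after removal of the GC and length trend and 3.73 without siCtr 0 d replicate 3 for Rock2. With TGFbeta the call of Rock1 was lost without replicate 2 or 3 of siCtr TGFbeta and in a fit of only the groups compared (2.43 to 2.80) and its value was 1.95 after removal of the GC and length trend and 1.88 without siIrf1 TGFbeta replicate 1. The call of Rock2 was lost there without replicate 1, 2 or 3 of siIrf1 0 d, replicate 2 or 3 of siCtr TGFbeta or replicate 1 of siIrf1 TGFbeta, with no filter on low counts, with the stricter filter, after removal of the GC and length trend and in a fit of only the groups compared (0.87 to 1.67). That of Diaph1 without TGFbeta was lost without replicate 1 of siCtr 0 d or replicate 3 of siIrf1 0 d and without the 2 libraries that stood apart (-0.59 to -0.44).

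Cald1 (2.26 ± 0.45 (adjusted p = 0.00596)), Lims1 (1.91 ± 0.48 (adjusted p = 0.0157)) and Tmsb4x (1.73 ± 0.39 (adjusted p = 0.01)) were higher in siIrf1 cells without TGFbeta, and with TGFbeta their siIrf1 and siCtr libraries overlapped. Rhob was higher without TGFbeta (1.09 ± 0.21 (adjusted p = 0.00468)) and was not called with it. Cav1 (1.39 (adjusted p = 0.0418)), the coat protein of caveolae, and Rdx (1.502 ± 0.43 (adjusted p = 0.0262)) were higher without TGFbeta, and stood at 1.04 (adjusted p = 0.144) and 1.32 (adjusted p = 0.0604) with it. The antagonist Rnd3 missed the threshold in both (1.39 (adjusted p = 0.0623) and 1.07 (adjusted p = 0.184)). The siCtr 0 d libraries behind these rises differed from each other. Without replicate 3 of that group the values were 3.37 for Cald1, 2.94 for Lims1, 2.76 for Tmsb4x, 2.41 for Cav1 and 2.45 for Rdx, and Rnd3 was then called at 2.63 (adjusted p = 0.00297). Rnd3 stood at 0.75 without replicate 1 and 0.60 after removal of the GC and length trend. Without replicate 1 the value of Cald1 was 1.65, as it was without the 2 libraries that stood apart. The call of Lims1 was lost without replicate 1 of siCtr 0 d (1.34), and that of Cav1 without replicate 1 of siCtr 0 d, replicate 1 or 3 of siIrf1 0 d, replicate 2 or 3 of siCtr TGFbeta or replicate 1 of siIrf1 TGFbeta, with no filter on low counts, after removal of the GC and length trend and in a fit of only the groups compared (0.55 to 1.401). That of Rdx was lost without replicate 1 of siCtr 0 d or replicate 1 or 3 of siIrf1 0 d and with no filter on low counts (0.95 to 1.55). With the GC and length trend removed Lims1 was at 0.67 and Rdx at 0.79.

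The 11 members lower in siIrf1 cells without TGFbeta were Flna, the integrin link genes Tns1, Tns3, Tln1 and Tln2, the myosin group genes Mylk and Nuak1, and Rhoa, Diaph1, Pfn1 and Msn. Flna was lower at -0.79 ± 0.15 (adjusted p = 0.00468) without and -0.73 ± 0.15 (adjusted p = 0.00923) with TGFbeta, and Msn at -0.43 (adjusted p = 0.0455) and -0.97 (adjusted p = 0.00168), each with no overlap of the libraries. Tns1 was lower at -0.63 (adjusted p = 0.0276) and -1.07 ± 0.18 (adjusted p = 0.00376), and Tns3 at -0.74 (adjusted p = 0.00334) without TGFbeta, where with TGFbeta its libraries overlapped. Both talins were lower without TGFbeta, Tln1 at -0.51 (adjusted p = 0.0271) and Tln2 at -0.70 (adjusted p = 0.00974), as was Nuak1 (-0.57 (adjusted p = 0.0126)). Rhoa was lower at -0.86 (adjusted p = 0.00862) and Pfn1 at -0.57 (adjusted p = 0.0316). Zyx was at -0.98 (adjusted p = 0.0565) without and -0.996 (adjusted p = 0.0782) with TGFbeta, with every siIrf1 library below every siCtr library in both, and missed the threshold.

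Several of these lower values were near the threshold. The call without TGFbeta was lost for Msn without replicate 1 or 3 of siCtr 0 d, replicate 1, 2 or 3 of siIrf1 0 d, replicate 2 or 3 of siCtr TGFbeta or replicate 1 of siIrf1 TGFbeta, with no filter on low counts, with the stricter filter and in a fit of only the groups compared (-0.47 to -0.33), for Tln1 without replicate 1 or 3 of siCtr 0 d, replicate 1 or 3 of siIrf1 0 d or replicate 2 or 3 of siCtr TGFbeta, with no filter on low counts, after removal of the GC and length trend and in a fit of only the groups compared (-0.51 to -0.30), and for Tns1 without replicate 1 or 3 of siCtr 0 d, replicate 1 or 3 of siIrf1 0 d or replicate 2 or 3 of siCtr TGFbeta (-0.62 to -0.55). It was lost for Tln2 without replicate 1 of siCtr 0 d (-0.58) and for Nuak1 without replicate 1 of siCtr 0 d or replicate 3 of siIrf1 0 d (-0.52 to -0.51). It was also lost for Rhoa without replicate 1 of siCtr 0 d (-0.59) and for Pfn1 without replicate 1 of siCtr 0 d, replicate 1 or 3 of siIrf1 0 d or replicate 2 or 3 of siCtr TGFbeta, after removal of the GC and length trend, without the 2 libraries that stood apart and in a fit of only the groups compared (-0.57 to -0.04). Rhoa was at -1.80 after removal of the GC and length trend. The calls of Cald1, Flna, Mylk, Rhob, Rock1, Rock2, Tmsb4x and Tns3 without TGFbeta, 8 of the 19, were made under each alternative and with any 1 library left out.

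With TGFbeta, the crosslinkers and scaffolds Palld (-1.59 ± 0.24 (adjusted p = 0.00209)) and Actn1 (-0.68 ± 0.16 (adjusted p = 0.0154)) were lower in siIrf1 cells, beside Flna, and Actn4 was not called. Flnc stood at -2.85 ± 0.48, a value that the filter favoured, since Flnc passed it only through the siCtr TGFbeta libraries. Without TGFbeta the libraries of Palld and Actn1 overlapped between the siRNAs. Myh10 was lower at -0.69 (adjusted p = 0.0198), and Enah at -0.87 (adjusted p = 0.04). Ezr was higher by 1.18 ± 0.23 (adjusted p = 0.00709), where it had overlapped between the siRNAs without TGFbeta. The call was lost for Actn1 without replicate 2 or 3 of siCtr TGFbeta (-0.74 to -0.72), and for Flna without replicate 3 of siCtr TGFbeta (-0.73). It was lost for Ezr without replicate 2 or 3 of siCtr TGFbeta (1.06 to 1.23), for Myh10 without replicate 2 or 3 of siCtr TGFbeta or replicate 1 of siIrf1 TGFbeta and in a fit of only the groups compared (-0.75 to -0.66) and for Enah without replicate 1, 2 or 3 of siIrf1 0 d, replicate 2 or 3 of siCtr TGFbeta or replicate 1 of siIrf1 TGFbeta and in a fit of only the groups compared (-0.97 to -0.87). Flnc was at -3.54 without the 2 libraries that stood apart and -3.48 without siIrf1 TGFbeta replicate 2. The calls of Msn, Palld and Tns1, 3 of the 12, were made under each alternative and with any 1 library left out, and Flnc was not tested under the stricter filter.

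The difference between the TGFbeta effects of the 2 siRNAs, tested as an interaction, was called for 3 of the 46 members, 1 higher and 2 lower in siIrf1 cells (6.52%, against 4.12% of all genes, 2.80% higher and 1.32% lower). The median of the members was -0.29, against 0.03 for all genes. An unadjusted p under 0.05 was found for 14 of the 46 members and for 2380 of all 13135 genes tested. Mylk had the interaction 2.04 ± 0.29 (adjusted p = 0.00424), its siCtr and siIrf1 cells having moved in opposite directions with TGFbeta. With siIrf1, Mylk was lower at -1.08 ± 0.20 (adjusted p = 0.00384) without TGFbeta and higher by 0.96 ± 0.21 (adjusted p = 0.0104) with it, with no overlap either time. Rhob had the interaction -1.49 ± 0.29 (adjusted p = 0.019), having started higher in siIrf1 cells and risen less. Palld had -1.58 ± 0.35 (adjusted p = 0.0351), having started from overlapping levels and risen less. The call of Mylk was lost without replicate 2 of siCtr TGFbeta (1.97), and that of Rhob without replicate 1 of siCtr 0 d or replicate 2 or 3 of siCtr TGFbeta (-1.61 to -1.51). That of Palld was lost without replicate 1 of siCtr 0 d, replicate 1, 2 or 3 of siIrf1 0 d or replicate 2 or 3 of siCtr TGFbeta (-1.67 to -1.47), and none of the 3 was called under every alternative. The call of Mylk with TGFbeta was lost without replicate 2 or 3 of siCtr TGFbeta (0.92).

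Other members had interaction values as large that were not called. Cald1 was at -2.24 (adjusted p = 0.0719), Lims1 at -1.83 (adjusted p = 0.163), Rock2 at -1.66 (adjusted p = 0.17) and Tmsb4x at -1.65 (adjusted p = 0.127). The 2 siCtr 0 d libraries of each of these 4 differed from each other in level. Without replicate 3 of that group the 4 values were -3.41, -2.91, -2.33 and -2.74, each called. Without the 2 libraries that stood apart Cald1 was called at -1.47, and Lims1 and Tmsb4x were at -1.02 and -0.98, not called. Rock2 was called without replicate 1 of siIrf1 TGFbeta (-2.18) and stood at -0.96 after removal of the GC and length trend. Ezr was at 1.19 (adjusted p = 0.0704), Rhoc at -0.91 (adjusted p = 0.119), Tln2 at 0.72 (adjusted p = 0.127) and Tns3 at 0.71 (adjusted p = 0.0712). DESeq2 called 9 members (19.6%, against 8.92% of all genes). With the GC and length trend removed 11 were called, 2 higher and 9 lower, and of all genes 675 were higher and 565 lower, where 368 and 173 were so with it kept. Among the 11 were Cald1 (-2.01 (adjusted p = 0.00747)), Rhoc (-1.28 (adjusted p = 0.00165)), Lims1 (-1.28 (adjusted p = 0.02)), Ezr (0.89 (adjusted p = 0.0362)) and Actn1 (-0.72 (adjusted p = 0.0387)). No member was called without siCtr TGFbeta replicate 2, 1 without replicate 1 of siCtr 0 d or replicate 3 of siCtr TGFbeta, and 9 were without siCtr 0 d replicate 3. The count thus moved with which siCtr library was kept. The number of all genes called was 541 with all libraries, 122 without replicate 2 of siCtr TGFbeta and 1590 without replicate 3 of siCtr 0 d.

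The siIrf1 differences of the members ran along the GC content of their transcripts. Across the 46 members the log2 difference of siIrf1 against siCtr without TGFbeta had a Pearson r of -0.66 with GC content, and across the 13023 tested genes with a known GC content one of -0.54. With TGFbeta these were -0.53 and -0.33. The TGFbeta changes showed less of it (-0.12 across members in siCtr and 0.22 in siIrf1 cells). These are descriptions across genes, which share libraries and are not independent replicates. Of the 15 members of lowest GC content (40.2 to 47.7%), 7 were higher and 2 lower in siIrf1 cells without TGFbeta, with a median of 1.39. Of the 16 in the middle (48.6 to 53.6%) none was higher and 5 were lower, and of the 15 of highest GC content (54.0 to 59.3%) 1 was higher and 4 were lower. Over all genes tested, of any GC content, 16.3% were higher and 15.5% lower, with a median of -0.03. All genes in the same GC ranges were not counted, so whether the members differ from them was not tested.

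With a trend on GC content and length taken out of each library, the r across members without TGFbeta was -0.27. Of the members 12 were then higher and 11 lower in siIrf1 cells, where 8 and 11 had been. Rock1 was then at 2.57 ± 0.67, Rock2 at 1.82 ± 0.43, Cald1 at 1.78 ± 0.27, Tmsb4x at 1.61 ± 0.36 and Rhob at 1.57 ± 0.11, each still called. Cav1, Tln1 and Pfn1 were then not called, at 0.55 (adjusted p = 0.0952), -0.30 (adjusted p = 0.128) and -0.04 (adjusted p = 0.906). Called higher in addition were Cfl1 (0.72 (adjusted p = 0.00278)), Rhoc (0.85 (adjusted p = 0.00104)), Fhl2 (0.68 (adjusted p = 0.00258)), Ilk (0.34 (adjusted p = 0.0258)) and Src (0.35 (adjusted p = 0.0397)). Called lower in addition were Enah (-0.82 (adjusted p = 0.00543)) and Parva (-0.81 (adjusted p = 0.00909)). As counted, the mean of Enah was the higher in siIrf1 cells, at 8.76 ± 2.43 RPKM in siCtr 0 d and 10.3 ± 0.404 in siIrf1 0 d. The libraries' GC balance differed between the siRNAs as well as within groups, with an index below 0 in all 4 siCtr libraries and above 0 in 5 of the 6 siIrf1 libraries. GC balance and siRNA cannot be told apart here.

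**Figure D4:**
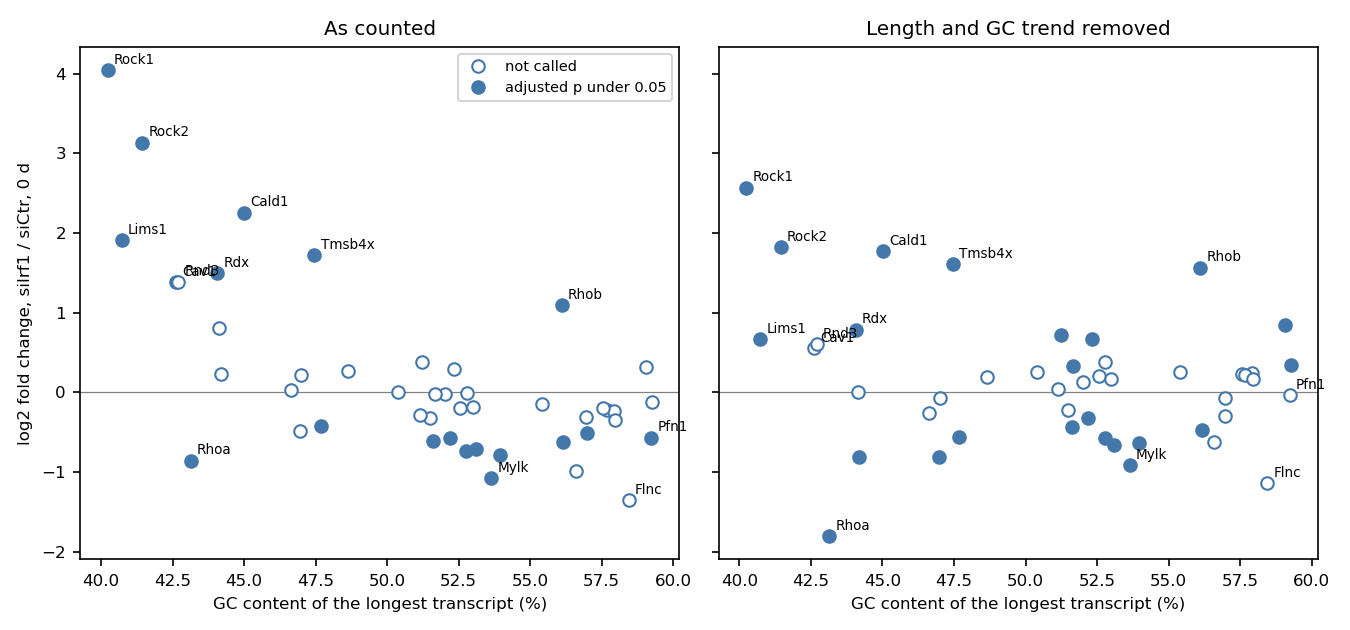
Log2 fold change of siIrf1 against siCtr without TGFbeta (y axis, no unit) against GC content of the longest transcript (x axis, %), for the 46 members as counted (left) and with the GC and length trend removed (right); each point is a gene and filled points passed the adjusted threshold of 0.05. On the left the genes highest in siIrf1 cells lie at low GC content, and on the right Rock1 and Rock2 lie lower but remain the highest 2.

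The other genes of the same pathways, a list of 133 of which 123 were tested, were described in the same way. With TGFbeta, 38 rose and 13 fell in siCtr cells (41.5%, against 32.5% of all genes) and 27 rose and 6 fell in siIrf1 cells (26.8%, against 21.3%), with medians of 0.43 and 0.28. Of the 39 other focal adhesion genes tested, 17 rose and 5 fell in siCtr cells. Rsu1, a partner of PINCH, rose 2.27 ± 0.21 (adjusted p = 2.76e-05). The LIM protein Fhl1 fell, at -3.59 ± 0.26 (adjusted p = 6.91e-06). It went from 15.5 ± 0.711 to 1.30 ± 0.284 CPM. In siIrf1 cells the lead genes of that list were Parvb (beta-parvin, 3.64 (adjusted p = 5.96e-06)), Fermt1 (kindlin 1, 1.62 (adjusted p = 2.80e-05)) and Lims2 (PINCH-2, 2.59 (adjusted p = 6.19e-05)).

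Of the 41 other genes of actin turnover and nucleation, 10 rose and 3 fell in siCtr cells. The filament-capping gene Capg rose 4.98 ± 0.29 (adjusted p = 2.82e-06), from 2.51 and 2.49 to 84.3 and 74.2 CPM, and 2.81 ± 0.22 (adjusted p = 1.29e-05) in siIrf1 cells. The LIM kinase Limk2 fell, at -1.45 ± 0.19 (adjusted p = 2.97e-04). The bundling gene Fscn1 (fascin) had 0 counts in both siCtr 0 d libraries and 50 and 20 in siCtr TGFbeta. Svil (supervillin, 1.51 (adjusted p = 1.87e-04)) and the formin Fhod1 (1.47 (adjusted p = 4.49e-04)) led in siIrf1 cells beside Capg.

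Of the 39 other GTPase and myosin genes tested, 10 rose and 5 fell in siCtr cells. Tpm1 (tropomyosin 1, the filament partner of caldesmon) rose 1.99 ± 0.17 (adjusted p = 1.81e-05) and the smooth muscle actin Acta2 rose 4.77 ± 0.45 (adjusted p = 3.30e-05) in siCtr and 5.02 ± 0.36 (adjusted p = 8.09e-06) in siIrf1 cells. Tagln (transgelin, an actin binder of smooth muscle) had 1 count in each siCtr 0 d library and was at 51.6 and 71.9 CPM in siCtr TGFbeta, and in siIrf1 cells it rose 5.07 ± 0.33 (adjusted p = 5.69e-06). Nuak2, the relative of Nuak1, rose 1.07 ± 0.14 (adjusted p = 3.44e-04) in siIrf1 cells. Of the SRF genes, the cofactor Mrtfa rose in siCtr (1.17 (adjusted p = 0.0119)) and siIrf1 cells (0.87 (adjusted p = 0.0243)), and Srf, Mrtfb and Scai were not called. The call of Mrtfa was lost in siCtr cells without replicate 2 of siCtr TGFbeta (1.06) and in siIrf1 cells without replicate 1 or 3 of siIrf1 0 d or replicate 1 or 2 of siIrf1 TGFbeta and in a fit of only the groups compared (0.70 to 0.88), and Acta2 was at 5.53 without siCtr 0 d replicate 3. In the comparisons of the siRNAs, 29 of the 123 were higher and 18 lower in siIrf1 cells without TGFbeta (38.2%, against 31.8% of all genes), and 10 were higher and 18 lower with it (22.8%, against 18.0%). The interaction was called for 10 (8.13%, against 4.12%), of which 2 were higher and 8 lower in siIrf1 cells.

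Promoters of the members were searched for the CArG box, the element bound by SRF (CC, then A or T at each of 6 positions, then GG), on both strands. RefSeq promoter windows of GRCm38.p6, from 250 bases before to 50 bases after a start site, were given for 39 of the 47 genes. Tln2, Parva, Pxn, Tgfb1i1, Ptk2, Rock1, Diaph1 and Actb had none. A CArG box was in the windows of 4 of the 39 genes (10.3%), and in those of 488 of all 27025 genes (1.81%). The 4 were Vcl and Fhl2, which rose with TGFbeta with both siRNAs, Actg1, which rose in siCtr cells, and Rnd3, which was not called. They are shown because they are the members whose start sites carry the letters that SRF binds. The 250 bases before the start site are given 5′ to 3′ on the strand of the gene, from RefSeq, with the CArG box in capitals. They lie at chr14:20929148-20929397 (plus strand) for Vcl, chr1:43163962-43164211 (minus strand) for Fhl2, chr11:120348496-120348745 (minus strand) for Actg1 and chr2:51149112-51149361 (minus strand) for Rnd3, and the box starts 227, 31, 90 and 100 bases before the start site.
Vcl: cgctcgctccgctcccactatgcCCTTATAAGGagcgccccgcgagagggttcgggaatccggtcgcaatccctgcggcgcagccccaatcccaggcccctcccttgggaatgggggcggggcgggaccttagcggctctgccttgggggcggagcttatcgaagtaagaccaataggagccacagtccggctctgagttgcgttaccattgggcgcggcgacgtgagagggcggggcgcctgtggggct
Fhl2: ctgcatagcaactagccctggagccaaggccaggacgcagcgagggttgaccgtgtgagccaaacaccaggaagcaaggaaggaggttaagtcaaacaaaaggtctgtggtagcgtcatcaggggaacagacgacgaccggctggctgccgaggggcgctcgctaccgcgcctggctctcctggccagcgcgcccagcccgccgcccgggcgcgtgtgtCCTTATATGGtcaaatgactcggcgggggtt
Actg1: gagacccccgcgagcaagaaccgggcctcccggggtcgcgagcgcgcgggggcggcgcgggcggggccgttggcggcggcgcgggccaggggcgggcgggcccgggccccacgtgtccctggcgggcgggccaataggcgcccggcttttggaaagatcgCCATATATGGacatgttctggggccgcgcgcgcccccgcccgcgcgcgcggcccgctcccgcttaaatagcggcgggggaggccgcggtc
Rnd3: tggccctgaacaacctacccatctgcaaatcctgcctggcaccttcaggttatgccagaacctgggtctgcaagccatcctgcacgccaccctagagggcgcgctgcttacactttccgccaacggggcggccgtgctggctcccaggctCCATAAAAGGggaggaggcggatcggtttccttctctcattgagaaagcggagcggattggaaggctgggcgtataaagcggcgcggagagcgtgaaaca

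Fhl2 has a CArG box in the window of another start site as well, 96 bases before it. The genes with the largest rises, Cald1, Rhob and Tmsb4x, had no CArG box in these windows, which says only that the letters are not in them. A pair of GAAA repeats as in sites of interferon regulatory factors, searched as GAAA, any 2 bases and GAAA on both strands, was in the windows of 2 of the 39 genes (5.13%) and of 3.99% of all genes. This search was chosen after the results were seen. The 2 genes were Pdlim5 and Mylk, and the sequence before a start site of Mylk (chr16:34784700-34784949, plus strand) is shown because Mylk had the interaction called with the smallest adjusted p of the members. The repeat, in capitals and read on the other strand, starts 207 bases before the start site.
Mylk: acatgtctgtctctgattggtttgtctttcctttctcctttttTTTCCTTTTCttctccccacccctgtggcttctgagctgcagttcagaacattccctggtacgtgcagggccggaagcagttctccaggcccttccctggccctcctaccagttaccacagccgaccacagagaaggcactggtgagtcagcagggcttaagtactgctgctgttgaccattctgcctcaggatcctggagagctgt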

How the data were processed

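Total RNA of 10 samples was made into stranded TruSeq libraries and sequenced on a HiSeq 2500, per the labels' protocols. The deposited table holds whole-number counts of reads per gene, per the labels and the values, beside a gene length for each Entrez identifier. Reads were aligned with STAR to mm10 (GRCm38), per the submitters' processing notes. Which counting tool was used, and whether by strand, is not given in the sources used here. Overlapping genes, close copies and processed pseudogenes therefore make some levels uncertain. Vcl, for example, shares 2090 of 5229 exonic bases with Ap3m1 on the opposite strand, and Ilk 1533 of 1879 with Taf10. All 10 sample columns were used and 0 were left out. Symbols were matched through RefSeq for 24374 of 24454 genes.

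Counts were analysed with edgeR 4.0.16 in R 4.3.3 (TMM scaling, the filterByExpr filter and the robust quasi-likelihood F test) in a single model that gave each group its own term. The filter kept 13135 genes, 6 residual degrees of freedom remained (median prior 4.15), and the biological coefficient of variation was 0.225. Benjamini-Hochberg adjustment ran over all genes of a comparison, with calls at an adjusted p under 0.05. The SE was taken as log2 fold change over the root of F. Fold changes are on the log2 scale, CPM values use the TMM effective library size, and RPKM values also use the deposited gene length. Totals of 27547649 to 67301646 counts leave counting error small except for Flnc, Rock1 and Tgfb1i1. No library was a copy of another (chi-square between replicates 24.8 to 318 times its degrees of freedom). The method was tested on simulated counts with 200 of 13135 genes changed. Rises of 2-fold were recovered for 10% of genes with TGFbeta in siCtr cells and 34% in siIrf1 cells. For siIrf1 against siCtr they were recovered for 22% without and 12% with TGFbeta, and for the interaction for 2%. Changes of 4-fold were recovered for 75%, 89%, 84%, 81% and 54%, in the same order. In the data 541 to 4267 genes were called per comparison, and the Benjamini-Hochberg cut-off is stricter where fewer genes change. The simulated shares are thus not those of these data. A gene that was not called may still have changed.

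The members, gene lists, roles and rules were chosen with earlier results of these data known. Named with every library were the 6 called members with the largest change per comparison, called members against the majority, members called in the interaction and the most abundant member of each role; of other pathway genes, up to 3 called per list and TGFbeta comparison. Alternatives were RLE size factors, no filter, a stricter filter (2 CPM in 3 libraries), DESeq2 1.42.0, a model of only the groups compared, the replicate number as a block, removal of a spline trend on length and GC content (from the longest transcript in GENCODE M21, matched for 99.1% of tested genes), that with the block, and leaving out each library. Leaving out siCtr 0 d replicate 1 with siIrf1 TGFbeta replicate 2 was added after seeing the data. To test for pairing, same-numbered libraries were compared by their deviations from the group mean, which had correlations of -0.39 to 0.45, 8 of 12 over 0.1. Between siIrf1 0 d and siIrf1 TGFbeta all 3 were over 0.1 (0.14 to 0.45), so for that comparison the counts with the block are given as well. Pairs of different number there ranged from -0.42 to 0.28, so some also passed 0.1. Over all groups pairs of different number ranged from -0.53 to 0.53. These correlations therefore do not show that same-numbered libraries were paired. Values and calls in siIrf1 cells are from the fit without the block unless the block is named. The choice to use the block came from the data, which do not settle whether libraries were paired. The sample titles give same-numbered libraries a shared tag as well, and the labels do not say what it stands for. Protein sequences were not used here, and 1 gene that the rule gives is not reported here.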

Additional observations from a re-analysis of the deposited data

Results flagged for a closer look

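The TGFbeta effect of 3 members differed between siCtr and siIrf1 cells by the test of the difference itself. For Mylk the interaction was 2.04, with log2 fold changes of -1.30 ± 0.22 in siCtr and 0.74 ± 0.18 in siIrf1 cells. For Rhob it was -1.49, with 3.30 ± 0.24 and 1.81 ± 0.19, and for Palld -1.58, with 2.33 ± 0.28 and 0.75 ± 0.22. The libraries with TGFbeta were all below those without it for Mylk in siCtr cells and all above them in siIrf1 cells. Each of the 3 calls was lost when some 1 library was left out, as given in the report. Groups of 2 and 3 libraries were too small for a test of single outlying libraries.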

How the results depend on the processing

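Of 2267 recalculated values of single genes, 1997 kept their direction and side of the threshold, 176 lost the call, 93 gained one and 1 changed sign (Pfn1 without TGFbeta, siIrf1 against siCtr, 0.068 with the replicate block and the trend removed). These were values of called members and other named values, so Enah in that comparison is not among them. The 23 reported values of members that missed the threshold passed it under 1 to 12 of their 18 or 19 alternatives. The number of members called with TGFbeta was within 1.5 times the reported one under every alternative, 19 to 30 of 28 in siCtr and 13 to 20 of 18 in siIrf1 cells with 1 library left out. For siIrf1 against siCtr without TGFbeta it was 8 to 21 of 19, with TGFbeta 4 to 20 of 12, and for the interaction 0 to 9 of 3. The number for siIrf1 against siCtr with TGFbeta was 27 without the 2 libraries that stood apart, and that of the interaction was 9 with DESeq2, 11 with the trend removed, 9 with that and the block, and 5 without the 2 libraries. The cause was not tested.

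Over all genes, leaving out 1 library gave 2297 to 5159 calls for TGFbeta in siCtr cells (4267 reported), 1957 to 3300 in siIrf1 cells (2799), 1700 to 5192 for siIrf1 without TGFbeta (4175), 762 to 2978 with TGFbeta (2365) and 122 to 1590 for the interaction (541). The lowest came without siCtr TGFbeta replicate 2 in the first, the fourth and the last, and without siCtr 0 d replicate 1 for siIrf1 without TGFbeta. The interaction had 1171 with DESeq2, 1240 with the trend removed and 894 with that and the block. TGFbeta in siIrf1 cells had 4227 with the trend removed and 4873 without the 2 libraries, and siIrf1 with TGFbeta 3584 and 4897. Without siCtr 0 d replicate 3, TGFbeta in siCtr cells had 3402 higher and 1714 lower genes.

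With the replicate block the members called numbered 27, 22, 22, 13 and 3 in the order of the report, and all genes 4347, 3046, 5233, 2230 and 522. Outside siIrf1 cells with and without TGFbeta the libraries share a number and a title tag whose meaning is not stated, and the block there ended the calls of Flnc (1.64) and Rock2 (1.68) with TGFbeta in siCtr cells, Msn (-0.40) without TGFbeta, Enah (-0.92) and Rock2 (1.38) with it, and the interaction of Palld (-1.72). It added calls of Vasp (0.50) with TGFbeta in siCtr cells, Actb (-0.43), Myh9 (-0.49), Vasp (-0.51) and Zyx (-1.24) for siIrf1 without TGFbeta, Myh9 (-0.62), Src (-0.57) and Tln1 (-0.46) with it, and the interaction of Ezr (1.34). With the block and the trend removed, calls were lost for Enah (0.34), Flnc (1.48), Rock2 (0.74) and Tln2 (0.51) with TGFbeta in siCtr cells, for Cav1 (0.62), Lims1 (0.66), Nuak1 (-0.32), Tln1 (-0.27) and Tns1 (-0.50) beside Pfn1 for siIrf1 without TGFbeta, and for Rock1 (1.56) and Rock2 (0.71) with it. A model of only the groups compared cannot be made for the interaction, which uses all 4. RLE size factors moved the median of all genes by under 0.1. With 2 siCtr libraries per group, leaving 1 out assumes that the other varies like the rest, and low counts limit Flnc, Rock1 and Tgfb1i1.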
